A study of Homo sapiens with 8 samples.

Results

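The genes described here are 44 components of DNA replication and entry into S phase, taken by symbol from the 16726 genes listed for each of 2 acute myeloid leukemia (AML) cell lines. All 44 were found in both lines, and all 44 passed the filter on low values used for testing. Poly(A) RNA was sequenced in 8 libraries. One line, NB4, is known as promyelocytic and the other, MM6, as monocytic, whereas the label of tumor type is acute monocytic leukemia throughout. In each line, cells carrying the lentiviral pLKO.1 hairpin against METTL14 (shM14-#2, here shM14; 2 libraries) were set against cells carrying the non-specific hairpin shNS (2 libraries). METTL14 is a subunit of the complex that writes N6-methyladenosine into RNA. All 4 groups went through the same selection in 0.5 µg/mL puromycin for 2 passages, so the shNS cells carry a vector and the drug exposure too. A single METTL14 hairpin was used, and the labels do not say whether the libraries of a group came from separate cultures. The p-values therefore measure only the spread between these libraries, which may be technical.

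Replication begins when the origin recognition complex, CDC6 and CDT1 load the ring-shaped MCM helicase onto DNA in G1. Cyclin E with its kinase and the DBF4-dependent kinase then convert the ring into an active helicase with CDC45 and the GINS complex, and primase and polymerases follow with the sliding clamp PCNA. Ribonucleotide reductase and thymidylate enzymes feed the fork with deoxynucleotides, and CAF-1 and UHRF1 act on histones and DNA methylation behind it. Many of these genes are known targets of E2F transcription factors and are therefore commonly read as marks of cycling cells. In bulk RNA, a smaller share of cells in S phase and less RNA per cell cannot be told apart.

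Depth was between 23272126 and 28814911 reads over the listed genes in each library, and the fewest reads for any of the 44 genes in any library was 245, for CCNE1. METTL14 had 8.35 and 8.35 RPKM (reads per kilobase and 1e6 reads) in NB4 shM14 libraries, against 14.1 and 12.5 RPKM in NB4 shNS libraries. It had 6.54 and 6.55 RPKM in MM6 shM14 libraries, against 12.5 and 13.4 RPKM in MM6 shNS libraries. METTL14 was thus lower in every shM14 library than in any shNS library of its line. Its change was -0.61 on the log2(RPKM + 1) scale in NB4 (SE 0.07, limma adjusted p = 0.0024) and -0.88 in MM6 (SE 0.13, limma adjusted p = 0.088). Replicates differed more in MM6. The SD over genes of the difference between replicates was 0.127 (shM14) and 0.153 (shNS) in NB4, against 0.370 (shM14) and 0.345 (shNS) in MM6, on the same log2 scale. The 6 promyelocyte and granulocyte markers did not set NB4 apart. They summed to 2350 to 2390 RPKM in NB4 shM14 libraries and to 2600 to 2690 RPKM in NB4 shNS libraries. In MM6 they summed to 4660 to 5040 RPKM with shM14 and to 4390 to 4570 RPKM with shNS. MPO was high in NB4 (2117 to 2490 RPKM, against 35.1 to 103 RPKM in MM6), but AZU1 (66.8 to 80.6 RPKM in NB4, 1090 to 1703 RPKM in MM6), PRTN3 (44.1 to 129 RPKM in NB4, 889 to 1217 RPKM in MM6) and ELANE (1599 to 2410 RPKM in MM6) were higher in MM6. ELANE had 0.0387 and 6.45 RPKM in NB4 shM14 and 0.0462 and 6.83 RPKM in NB4 shNS. The replicates numbered 2 thus stood apart in both groups. By hairpin, PRTN3 in NB4 had 127 and 129 RPKM with shM14, against 46.1 and 44.1 RPKM with shNS. CTSG in NB4 had 6.73 and 6.85 RPKM with shM14, against 41.9 and 44.9 RPKM with shNS. MPO and AZU1 were also lower in both NB4 shM14 libraries. In MM6, CTSG, MPO and AZU1 were lower in both shM14 libraries, and PRTN3, ELANE and CD33 were higher. The 6 monocyte markers summed to 119 RPKM in both NB4 shM14 libraries, against 43.5 and 45.2 RPKM in NB4 shNS, and to 14400 and 8250 RPKM in MM6 shM14, against 9300 and 5900 RPKM in MM6 shNS. Nearly all of the MM6 sum was LYZ (14300 and 8164 RPKM with shM14, against 9206 and 5836 RPKM with shNS), and the MM6 groups overlapped. CD68 overlapped too, at 56.6 and 34.2 RPKM with shM14, against 66.7 and 42.4 RPKM with shNS. In contrast, CD14, ITGAM, CSF1R and FCGR1A were higher in both MM6 shM14 libraries. CD14 had 63.2 and 36.3 RPKM, against 14.7 and 12.2 RPKM in MM6 shNS. ITGAM had 5.67 and 4.67 RPKM, against 3.05 and 2.49 RPKM in MM6 shNS. CSF1R had 3.075 and 3.76 RPKM, against 1.29 and 1.43 RPKM, and FCGR1A 7.84 and 10.2 RPKM, against 5.11 and 6.12 RPKM. LYZ was also present in NB4, at 83.4 and 84.6 RPKM with shM14, against 19.8 and 21.4 RPKM with shNS. The part of these marker differences in the changes below was not tested. T cell, B cell, erythroid, epithelial and fibroblast markers were low, apart from CD3D and EPCAM in NB4; summed T cell markers were 59.3 to 61.3 RPKM in NB4 shM14 and 46.4 to 48.1 RPKM in NB4 shNS.

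The first question was whether the replication genes as a group changed with the METTL14 hairpin in NB4. Most did not move past the threshold: 8 rose, 2 fell and 34 did not pass, a share called of 22.7% of the 44 genes. Over all 11531 genes tested in NB4, 47.4% were called, 22.1% higher and 25.2% lower (limma, Benjamini-Hochberg adjusted p under 0.05, two-sided). The genes that rose were RRM2, CCNE1, CCNE2, E2F2, CDC45, GINS4, POLA2 and UHRF1, and those that fell were CDT1 and CHAF1B. The median change of the 44 genes was 0.0035 on the log2 scale, against -0.0088 over all genes tested. The 34 genes that did not pass had changes between -0.20 and 0.15, and their 95% intervals reached no further than -0.39 and 0.29. The RPKM values of the 44 genes summed to 2145 and 2137 in NB4 shM14 libraries, against 2089 and 2120 in NB4 shNS libraries. When all 8 libraries were fitted in 1 model, so that the spread of each gene drew on both lines, the call in NB4 held for RRM2 alone. That model called 1769 of all 11531 genes tested in NB4. With voom on recovered reads 14 rose and 6 fell, where voom called 6332 of all 11531 genes tested. These were the 10 genes above and also FEN1, MCM10, PCNA, RPA1, RPA2 and RRM1 (higher) and MCM2, MCM6, PRIM1 and TK1 (lower). With any 1 library left out, fewer of the 44 genes rose than in the main fit, and fewer of all genes tested were called as well. The median change of the 44 genes then lay between 0.0050 and 0.024.

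In MM6 none of the 44 genes passed the threshold, where 0.0757% of 11895 genes tested were called, 0.0504% higher and 0.0252% lower. At an unadjusted p under 0.05, limma gave 4 of the 44 genes, where it gave 1779 of all 11895 (14.96%). Voom on recovered reads called 0 of the 44 at an adjusted p under 0.05, and 39 over all genes. The change was below 0 for 34 genes and above 0 for 10, with a median of -0.08 against -0.03 over all genes tested. That median ranged from -0.20 to 0.017 when each library was left out in turn; it was 0.017 without shM14 replicate 1 and below 0 without each of the other 3 libraries. Intervals were wide in MM6 and reached -1.58 and 1.55. The RPKM values of the 44 genes summed to 1417 and 1603 in MM6 shM14 libraries, against 1603 and 1651 in MM6 shNS libraries. When all 8 libraries were fitted in 1 model, E2F2 and RRM2 were called higher and PRIM2, RPA3 and UHRF1 lower in MM6. That model called 1315 of all 11895 genes tested in MM6.

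By role, the MM6 changes lay mostly below 0 without passing. Among the licensing genes 9 of 10 were below 0, with changes from -0.38 to 0.04. All 6 genes of helicase activation were below 0, from -0.31 to -0.05, and 6 of the 7 primase and polymerase genes were, down to -0.30. Of the clamp, loader, RPA and maturation genes 7 of 10 were below 0, from -0.34 to 0.08. Of the cyclin E and E2F genes, 3 of 4 were above 0, up to 0.94. In NB4 the licensing genes also had 9 of 10 changes below 0, while helicase activation had 4 of 6 and the clamp, loader, RPA and maturation genes 8 of 10 above 0. All of these genes come from the same libraries, so their shared signs are not independent.

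**Figure D1:**
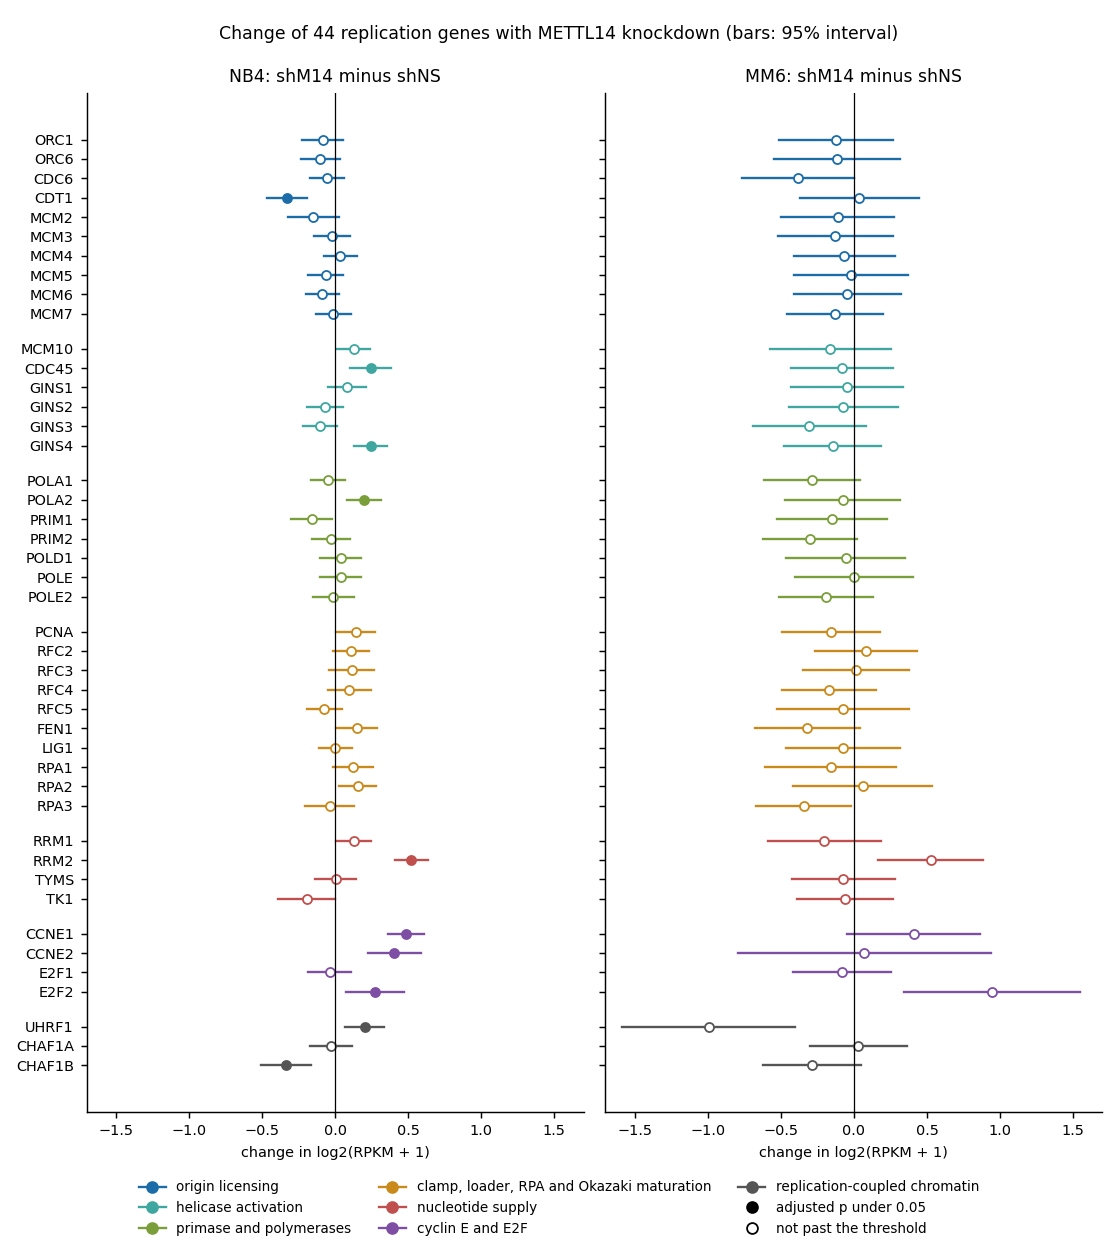
Change of each of the 44 genes (shM14 minus shNS, log2(RPKM + 1), horizontal axis) with its 95% interval, in NB4 on the left and MM6 on the right; filled points passed an adjusted p of 0.05 in limma. In NB4, 10 points are filled and the others lie between -0.20 and 0.15; in MM6 none is filled, and UHRF1 and E2F2 lie farthest from 0.

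With both lines in 1 additive model, 2 of the 44 genes rose (RRM2 and CCNE1) and 1 fell (CHAF1B), a share called of 6.82%, where 11.9% of 12804 genes were called, 4.8% higher and 7.1% lower. For the difference between lines, the NB4 change minus the MM6 change, none of the 44 genes passed, where 2.92% of 12804 genes were called, 1.39% with a positive and 1.53% with a negative difference. At an unadjusted p under 0.05, limma gave 8 of the 44 genes for that difference, where it gave 19.61% of all 12804. Voom called 0 of the 44 at an adjusted p under 0.05, and 207 over all genes. In this fit, then, a call in NB4 without a call in MM6 was not shown to be a difference between the lines; under other settings up to 3 of the 44 genes passed, given with the alternatives. The sign of the change was the same in both lines for 27 of the 44 genes, or 61.4%, against 63.7% of the 10647 genes tested in both lines.

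The promoters of these genes were also searched for sequence motifs. Many of the 44 genes are known E2F targets, so their share of E2F-type motifs is not independent of the choice of genes. RefSeq promoter sequence (GRCh38.p14) was matched for 38 of the 44 genes, and the 250 bases upstream of the start were searched on both strands. An E2F-type motif, any of TTTCCCGC, TTTCGCGC, TTTGCCGC and TTTGGCGC, was present in 15 of the 38 genes (39.5%). It was present in 3.4% of 27305 genes with a promoter and in 5.74% of the 10043 of them tested in the fit of both lines. The motif CCAAT, bound by NF-Y, was present in 22 of 38 genes (57.9%), against 37% of all genes and 41.5% of those tested. The motif TTTGAA, known as the CHR element of late cell cycle genes, was present in 1 of 38 genes (2.63%), against 16.1% and 12%. Of the 15 genes with the E2F-type motif, 3 rose in NB4 (POLA2, E2F2 and UHRF1), 1 fell (CDT1) and 11 did not pass. Of the 22 genes with CCAAT, 3 rose (RRM2, CDC45 and UHRF1), none fell and 19 did not pass. Of all 44 genes, 8 rose and 2 fell in NB4, and of all genes tested there 22.1% rose and 25.2% fell. Whether a motif went with a change was not tested. A match is a description of the letters and shows no binding. The windows of 4 genes that passed the threshold are shown, 3 that share the E2F-type motif while CDT1 fell and POLA2 and E2F2 rose, and RRM2, which holds CCAAT 3 times and none of the E2F-type letters. Each is given 5′ to 3′ on the strand of the gene with the motif in capitals; it starts at position -35 in CDT1, -53 in POLA2 and -42 in E2F2, and at -123, -93 and -66 in RRM2, counted from the start of the transcript. The windows are chr16:88803539-88803788 (plus strand) for CDT1, chr11:65261712-65261961 (plus) for POLA2, chr1:23531234-23531483 (minus) for E2F2 and chr2:10122489-10122738 (plus, the first of 2 windows) for RRM2.
CDT1: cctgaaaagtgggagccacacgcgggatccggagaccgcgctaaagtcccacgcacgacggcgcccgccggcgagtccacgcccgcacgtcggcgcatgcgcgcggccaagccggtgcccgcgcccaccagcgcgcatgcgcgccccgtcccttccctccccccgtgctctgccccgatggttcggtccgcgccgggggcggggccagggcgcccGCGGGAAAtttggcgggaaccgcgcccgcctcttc
POLA2: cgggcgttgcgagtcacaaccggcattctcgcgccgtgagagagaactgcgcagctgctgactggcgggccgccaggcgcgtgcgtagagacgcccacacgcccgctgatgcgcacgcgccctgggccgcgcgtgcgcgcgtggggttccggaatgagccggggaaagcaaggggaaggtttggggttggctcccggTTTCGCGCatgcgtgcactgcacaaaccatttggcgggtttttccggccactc
E2F2: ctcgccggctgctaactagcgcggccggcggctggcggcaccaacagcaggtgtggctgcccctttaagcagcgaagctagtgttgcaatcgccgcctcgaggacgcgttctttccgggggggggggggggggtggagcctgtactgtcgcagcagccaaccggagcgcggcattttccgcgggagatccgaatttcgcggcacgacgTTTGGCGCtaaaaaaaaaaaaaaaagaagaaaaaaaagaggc
RRM2: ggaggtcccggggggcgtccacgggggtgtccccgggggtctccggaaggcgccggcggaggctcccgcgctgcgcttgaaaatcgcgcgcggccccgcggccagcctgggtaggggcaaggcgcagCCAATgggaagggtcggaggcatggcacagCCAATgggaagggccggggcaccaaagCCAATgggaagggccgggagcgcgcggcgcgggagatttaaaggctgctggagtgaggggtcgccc

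Among the 10 licensing genes (ORC1, ORC6, CDC6, CDT1 and MCM2 to MCM7), 1 fell in NB4, none rose, and the median change was -0.07. CDT1, which brings the MCM ring to the origin and is normally destroyed once S phase begins, had 69.3 and 70.7 RPKM in NB4 shM14 libraries, against 85.4 and 91.1 RPKM in NB4 shNS libraries. The groups did not overlap, and CDT1 fell by 0.33 on the log2 scale (SE 0.05, limma adjusted p = 0.0073). In MM6, CDT1 had 14.7 and 18.7 RPKM with shM14, against 16.7 and 15.6 RPKM with shNS, and these groups overlapped (change 0.04, SE 0.16). The difference between the lines was -0.37 (SE 0.17, limma adjusted p = 0.29). CDC6, the loader that works with CDT1, had 28.0 and 27.6 RPKM in NB4 shM14 libraries, against 28.6 and 29.2 RPKM in NB4 shNS libraries. In MM6 it had 17.7 and 21.7 RPKM with shM14, against 26.3 and 25.5 RPKM with shNS; both shM14 libraries were the lower ones, and the change of -0.38 (SE 0.15) did not pass (limma adjusted p = 0.34).

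None of the genes of the MCM ring passed in either line. MCM7 had 206 and 205 RPKM in NB4 shM14 libraries, against 204 and 212 RPKM in NB4 shNS libraries. MCM3 had 147 and 145 RPKM in NB4 shM14 libraries, against 146 and 151 RPKM in NB4 shNS libraries. Both sets of values overlapped, with changes of -0.01 (SE 0.05) for MCM7 and -0.02 (SE 0.05) for MCM3. In MM6, MCM7 had 72.7 and 74.7 RPKM with shM14, against 83.1 and 78.3 RPKM with shNS, and MCM3 had 90.0 and 111 RPKM with shM14, against 109 and 109 RPKM with shNS. The MCM3 groups overlapped and the MCM7 groups did not, and neither change passed the threshold (-0.13 for each gene). The 6 ring subunits are needed in equal number in the protein complex, but their transcripts were not equal per length. The highest of MCM2 to MCM7 was 2.99 to 3.19 times the lowest within NB4 libraries and 2.18 to 2.58 times the lowest within MM6 libraries. Summed over the 10 licensing genes, NB4 shM14 libraries had 839 and 836 RPKM, against 866 and 896 RPKM in NB4 shNS libraries; the MM6 sums were 457 and 529 RPKM with shM14, against 530 and 525 RPKM with shNS.

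Of the 6 genes of helicase activation (MCM10, CDC45 and the 4 GINS subunits), 2 rose in NB4 and none fell. Of all genes tested in NB4, 22.1% were called higher and 25.2% lower. CDC45, the helicase subunit added at origin firing, had 37.6 and 35.4 RPKM in NB4 shM14 libraries, against 30.0 and 31.4 RPKM in NB4 shNS libraries. GINS4 had 9.51 and 9.47 RPKM in NB4 shM14 libraries, against 7.92 and 7.79 RPKM in NB4 shNS libraries. Neither pair of groups overlapped, and the changes were 0.24 for CDC45 (SE 0.06, limma adjusted p = 0.020) and 0.24 for GINS4 (SE 0.04, limma adjusted p = 0.010). The CDC45 call was lost without shM14 replicate 1 (limma adjusted p = 0.12) and without shNS replicate 1 (limma adjusted p = 0.061), and the GINS4 call without shM14 replicate 1 (limma adjusted p = 0.069) and without shM14 replicate 2 (limma adjusted p = 0.063). In MM6, CDC45 had 16.2 and 18.4 RPKM with shM14, against 18.8 and 17.8 RPKM with shNS. GINS4 had 9.88 and 10.5 RPKM in MM6 shM14 libraries, against 11.78 and 10.97 RPKM in MM6 shNS libraries. CDC45 overlapped between the MM6 groups, while GINS4 was lower in both shM14 libraries with a change that did not pass (-0.14, SE 0.13). The difference between the lines was 0.39 for GINS4 (SE 0.11, limma adjusted p = 0.12) and 0.32 for CDC45 (SE 0.13, limma adjusted p = 0.23). GINS3, among the 3 lowest of the 44 genes by mean RPKM, had 8.91 and 9.27 RPKM in NB4 shM14 libraries, against 9.825 and 9.839 RPKM in NB4 shNS libraries. In MM6 it had 6.171 and 6.505 RPKM with shM14, against 7.231 and 9.004 RPKM with shNS. GINS3 was lower in the shM14 libraries of both lines, and neither change passed (limma adjusted p = 0.13 in NB4 and 0.44 in MM6). Within libraries the highest GINS transcript was 6.46 to 8.17 times the lowest in NB4 and 2.31 to 3.49 times in MM6, although the complex holds 1 copy of each subunit.

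Primase and the replicative polymerases (POLA1, POLA2, PRIM1, PRIM2, POLD1, POLE and POLE2) gave 1 call in NB4. POLA2, the accessory subunit of polymerase alpha, had 18.4 and 18.7 RPKM in NB4 shM14 libraries, against 16.3 and 15.8 RPKM in NB4 shNS libraries. The groups did not overlap and the change was 0.20 (SE 0.05, limma adjusted p = 0.022). That call was lost without shM14 replicate 1 (limma adjusted p = 0.11), without shM14 replicate 2 (limma adjusted p = 0.13) and without shNS replicate 2 (limma adjusted p = 0.054). POLA2 overlapped in MM6, with 14.4 and 16.8 RPKM in shM14 libraries against 15.3 and 17.9 RPKM in shNS libraries. POLA1, the catalytic subunit of the same polymerase, had 10.1 and 10.3 RPKM in NB4 shM14 libraries, against 10.4 and 10.7 RPKM in NB4 shNS libraries, and 7.23 and 7.84 RPKM in MM6 shM14 libraries, against 9.27 and 9.49 RPKM in MM6 shNS libraries. POLA1 was lower with shM14 in both lines, and its changes did not pass (-0.05, SE 0.05 in NB4 and -0.28, SE 0.13 in MM6). Of these 2 subunits of polymerase alpha, POLA2 alone passed in NB4.

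None of the 10 genes of the clamp, its loader, the single-strand binding protein RPA and Okazaki fragment maturation (PCNA, RFC2 to RFC5, FEN1, LIG1 and RPA1 to RPA3) passed in NB4. Their median change was 0.11. PCNA, the highest of the 44 genes by mean RPKM, had 202 and 198 RPKM in NB4 shM14 libraries, against 187 and 177 RPKM in NB4 shNS libraries. The groups did not overlap, and the change of 0.14 (SE 0.05) gave a limma adjusted p of 0.075. In MM6, PCNA had 133 and 141 RPKM with shM14, against 147 and 159 RPKM with shNS, which is the opposite order (change -0.16, SE 0.13, limma adjusted p = 0.68). Summed over the 10 genes, NB4 shM14 libraries had 618 and 611 RPKM, against 581 and 568 RPKM in NB4 shNS libraries, and the MM6 sums were 416 and 467 RPKM with shM14, against 465 and 493 RPKM with shNS. RPA3, the smallest RPA subunit, had 32.1 and 28.8 RPKM in NB4 shM14 libraries, against 31.3 and 31.0 RPKM in NB4 shNS libraries. It had 17.8 and 18.8 RPKM in MM6 shM14 libraries, against 23.8 and 23.2 RPKM in MM6 shNS libraries. RPA3 overlapped in NB4 and did not overlap in MM6, where its change was -0.34 (SE 0.13, limma adjusted p = 0.32). For all 10 genes the NB4 change exceeded the MM6 change, by 0.0013 to 0.47, and none of these differences passed the threshold. Over the 44 genes the median difference was 0.098, and -0.0076 without MM6 shM14 replicate 1.

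Of the 4 nucleotide supply genes, RRM2 rose in NB4. RRM2, the small subunit of ribonucleotide reductase, whose level sets much of the enzyme's activity in S phase, had 106 and 106 RPKM in NB4 shM14 libraries, against 73.5 and 73.8 RPKM in NB4 shNS libraries. MM6 shM14 libraries had 85.4 and 74.4 RPKM of RRM2, against 57.2 and 53.2 RPKM in MM6 shNS libraries. The groups did not overlap in either line, and the ratio of the means was 1.44 in NB4 and 1.45 in MM6. The change was 0.52 in NB4 (SE 0.04, limma adjusted p = 0.0013) and 0.52 in MM6 (SE 0.14, limma adjusted p = 0.20), and over both lines it was 0.52 (SE 0.07, limma adjusted p = 0.0052). The difference between the lines was -0.0044, with a 95% interval of -0.31 to 0.30. The NB4 and both-lines calls of RRM2 held under every alternative run, each left-out library included. RRM1, the large subunit, TYMS, the thymidylate synthase, and TK1, the salvage kinase of thymidine, did not pass in NB4; the lowest change among them was -0.20, for TK1. GENCODE v29 names 3 pseudogenes of RRM2 (RRM2P2, RRM2P3 and RRM2P4), none listed in the tables, so how reads shared with them were counted is uncertain. The same holds for PCNA, RFC3, RFC5, FEN1, RPA2 and TYMS, the other genes among the 44 with named pseudogenes.

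Cyclin E and E2F genes gave 3 calls among 4 genes in NB4, all higher, where 22.1% of all genes tested were called higher. With 4 genes in the role, that count was not tested against this share. CCNE1, the cyclin that activates CDK2 at the G1/S border, had 8.04 and 7.72 RPKM in NB4 shM14 libraries, against 5.375 and 5.311 RPKM in NB4 shNS libraries. MM6 libraries had 21.1 and 25.4 RPKM with shM14, against 15.2 and 19.5 RPKM with shNS. Every shM14 library was above every shNS library of its line. The change was 0.48 in NB4 (SE 0.05, limma adjusted p = 0.0018), 0.41 in MM6 (SE 0.18, limma adjusted p = 0.38) and 0.45 over both lines (SE 0.10, limma adjusted p = 0.024). The call over both lines was lost without any single NB4 library (limma adjusted p between 0.076 and 0.084) and without MM6 shNS replicate 1 (limma adjusted p = 0.051). CCNE2, its paralog, had 8.32 and 7.69 RPKM in NB4 shM14 libraries, against 6.16 and 5.46 RPKM in NB4 shNS libraries, and rose by 0.40 (SE 0.07, limma adjusted p = 0.0094). In MM6, CCNE2 had 11.65 and 17.97 RPKM with shM14, against 9.84 and 19.0 RPKM with shNS. There the replicates of each group differed more than the groups did (change 0.07, SE 0.34).

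E2F2, an activator of the E2F family and the lowest of the 44 genes by mean RPKM, had 7.46 and 8.12 RPKM in NB4 shM14 libraries, against 5.86 and 6.72 RPKM in NB4 shNS libraries. MM6 libraries had 8.18 and 5.96 RPKM with shM14, against 4.02 and 2.43 RPKM with shNS. No shM14 library overlapped with the shNS libraries of its line. The ratio of the means was 1.24 in NB4 and 2.19 in MM6, and the changes were 0.27 (SE 0.08, limma adjusted p = 0.038) and 0.94 (SE 0.24, limma adjusted p = 0.18). The NB4 call was lost with a pseudocount of 0.1 (limma adjusted p = 0.054), with no filter (0.061), and without shM14 replicate 1 (0.058), shM14 replicate 2 (0.15) or shNS replicate 1 (0.10). Over both lines the change was 0.61 (SE 0.18, limma adjusted p = 0.064). In the authors' deposited table E2F2 had a log2 change of 1.17 in MM6 with an adjusted p of 0.011. E2F1 did not pass in NB4.

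The 3 genes of replication-coupled chromatin went in different directions. CHAF1B, a subunit of the histone chaperone CAF-1, had 13.0 and 12.3 RPKM in NB4 shM14 libraries, against 15.3 and 17.1 RPKM in NB4 shNS libraries. In MM6 it had 17.5 and 18.2 RPKM with shM14, against 23.1 and 20.9 RPKM with shNS. The shM14 libraries were the lower ones in both lines. CHAF1B fell by 0.34 in NB4 (SE 0.07, limma adjusted p = 0.014) and by 0.31 over both lines (SE 0.07, limma adjusted p = 0.027), with a change of -0.29 in MM6 alone (SE 0.13, limma adjusted p = 0.40). The NB4 call was lost without shM14 replicate 2 (limma adjusted p = 0.062), and the call over both lines without any single NB4 library (limma adjusted p between 0.068 and 0.10) or MM6 shNS replicate 1 (limma adjusted p = 0.059). CHAF1A, the large CAF-1 subunit, did not pass in either line.

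UHRF1, which reads hemimethylated DNA behind the fork and recruits the maintenance methyltransferase, had 21.7 and 21.6 RPKM in NB4 shM14 libraries, against 18.1 and 19.3 RPKM in NB4 shNS libraries. In MM6 it had 36.6 and 54.0 RPKM with shM14, against 78.7 and 102 RPKM with shNS. The shM14 libraries were higher than the shNS libraries in NB4 and lower in MM6, with no overlap in either line. The change was 0.20 in NB4 (SE 0.05, limma adjusted p = 0.028), a call lost without shM14 replicate 1 (0.13), shM14 replicate 2 (0.12) or shNS replicate 1 (0.066). In MM6 the change was -0.99 (SE 0.24, limma adjusted p = 0.17, 95% interval -1.58 to -0.40), a ratio of the means of 0.502. The difference between the lines was 1.20 (SE 0.27) and missed the threshold (limma adjusted p = 0.072). Of 15 alternatives, it passed under 3 and did not pass under 12. It passed with median-of-ratios scaling (limma adjusted p = 0.044) and did not with voom on recovered reads (adjusted p = 0.079). With each library left out in turn, the difference ranged from 0.92, without MM6 shM14 replicate 1, to 1.47, without MM6 shM14 replicate 2. In the authors' deposited table UHRF1 had a log2 change of -0.97 in MM6 with an adjusted p of 0.012.

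**Figure D2:**
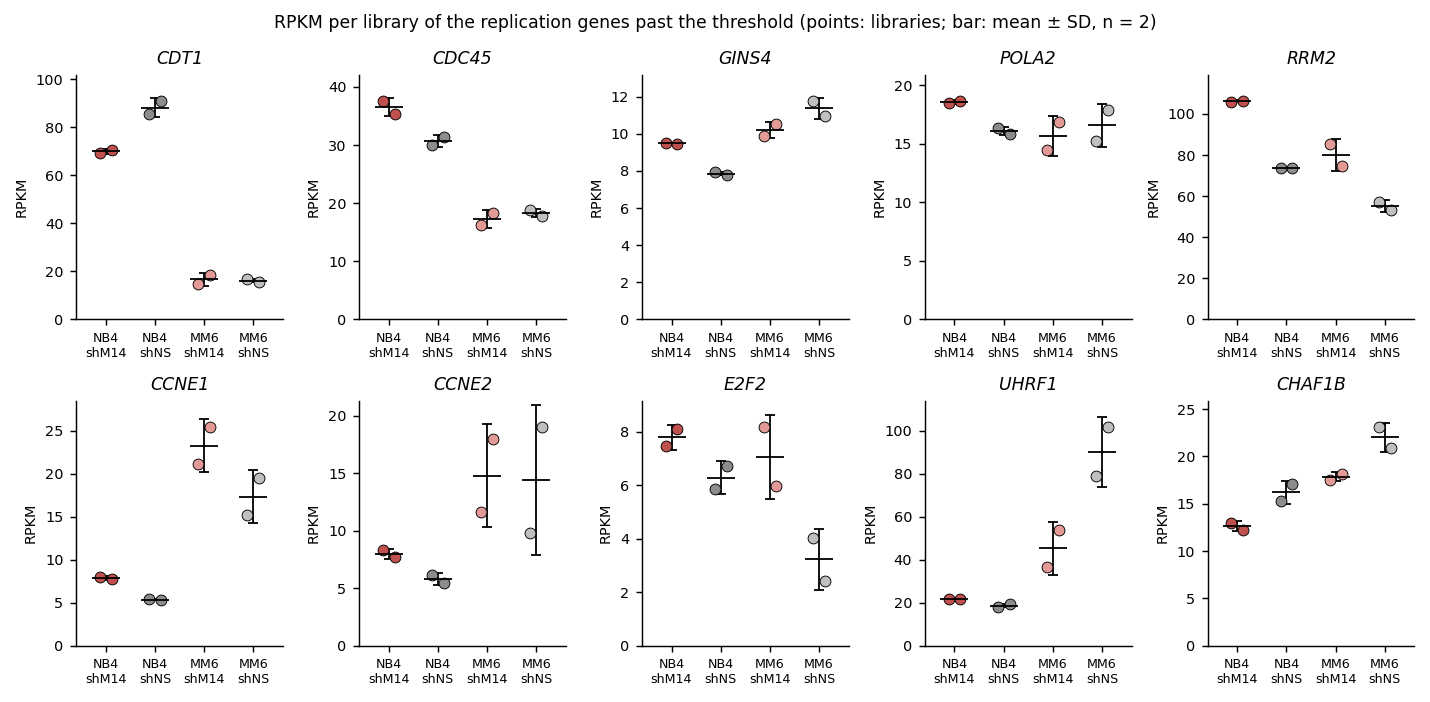
RPKM in each library (points) of the 10 genes that passed an adjusted p of 0.05 in a fit, with the mean and SD of each group (n = 2), for NB4 shM14, NB4 shNS, MM6 shM14 and MM6 shNS from left to right; each axis starts at 0. RRM2 and CCNE1 stand higher with shM14 in both lines, CHAF1B lower in both, and UHRF1 stands higher in NB4 and lower in MM6.

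The authors' deposited table called more of the 44 genes in NB4. At an adjusted p under 0.05 the authors' deposited table had 16 higher and 4 lower in NB4, where it called 22.1% and 21.5% of the 16726 genes. In MM6 the authors' deposited table had E2F2 higher and UHRF1 lower, where it called 1.58% and 1.69% of genes. RRM2 had log2 changes of 0.56 in NB4 and 0.58 in MM6 in the authors' deposited table, with adjusted p-values of 1.3e-38 and 0.26.

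Levels of the replication genes were also compared between the lines, where most of all genes tested stood apart too. Both tables use the same gene lengths, but the lines were deposited in separate tables, so levels across lines are given without a test. All 4 NB4 libraries were above all 4 MM6 libraries for 24 of the 44 genes, and all 4 were below for 10, with 10 genes overlapping. Over the 12804 genes tested the shares were 35.5% above and 32.2% below, or 67.7% without overlap. The genes named next in this paragraph were picked after their values were seen. LIG1, the ligase of Okazaki fragments, averaged 75.0 RPKM in NB4 and 10.9 RPKM in MM6, a ratio of 6.87. CDT1 was 4.82 times, GINS2 4.41 times, POLE 3.48 times, ORC6 3.31 times and MCM7 2.68 times as high in NB4 as in MM6. UHRF1, with 20.2 RPKM in NB4 and 67.7 RPKM in MM6, and CCNE1, with 6.61 RPKM in NB4 and 20.3 RPKM in MM6, had the opposite order. Averages in this paragraph cover the 4 libraries of a line, both hairpins included. In shNS libraries alone, UHRF1 averaged 18.7 RPKM in NB4 and 90.2 RPKM in MM6. TK1 was also lower in NB4, at 26.0 RPKM against 66.3 RPKM in MM6. RRM2 kept to a narrower gap, 89.9 RPKM in NB4 and 67.6 RPKM in MM6. The sum over the 44 genes lay between 2089 and 2145 RPKM in the NB4 libraries and between 1417 and 1651 RPKM in the MM6 libraries.

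**Figure D3:**
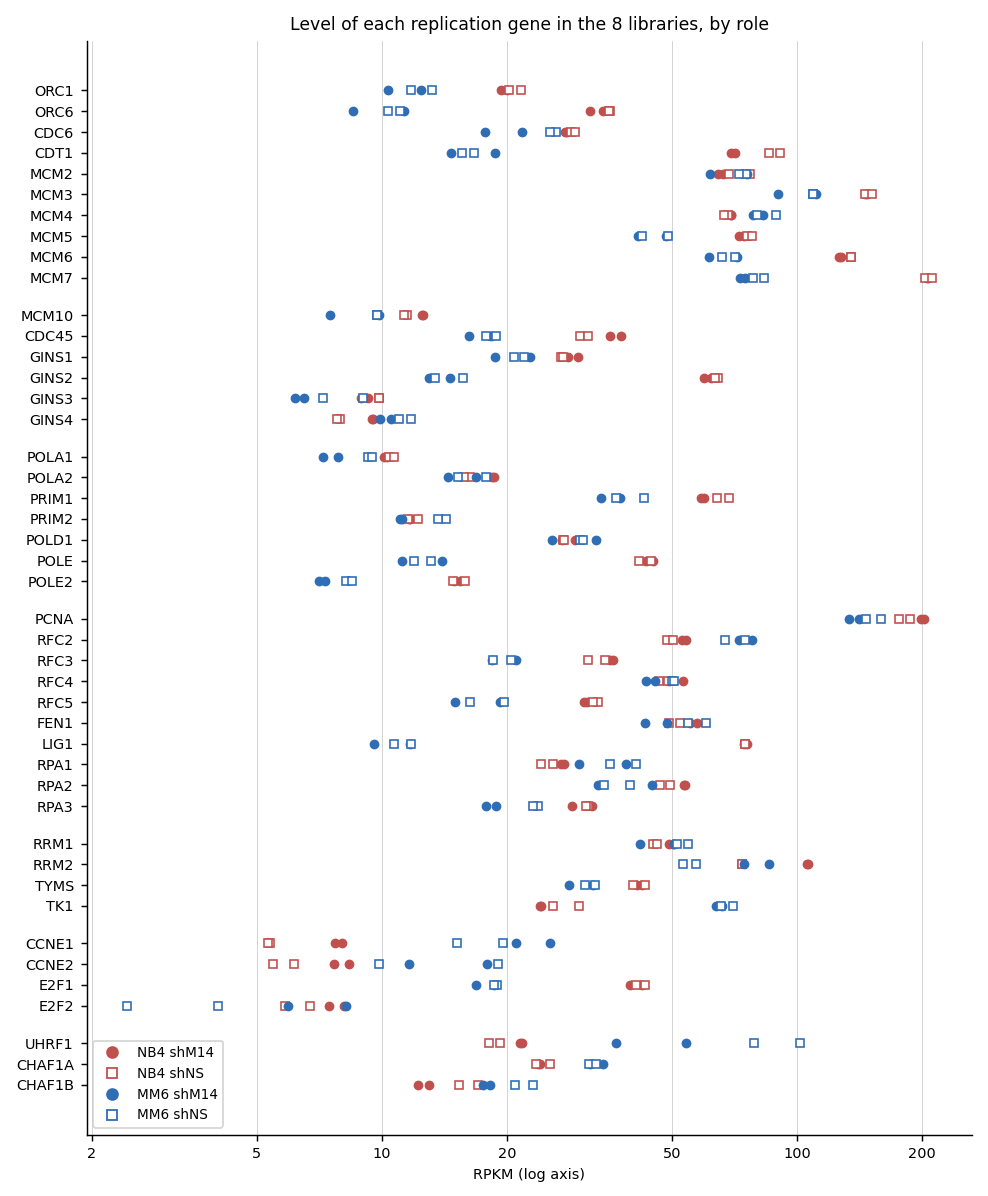
RPKM of the 44 genes in the 8 libraries on a log axis, NB4 in red and MM6 in blue, with filled points for shM14 and open points for shNS. LIG1, CDT1 and GINS2 separate NB4 above MM6, UHRF1 and CCNE1 separate MM6 above NB4, and filled and open points of a line lie close together for most genes.

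Other genes that work with the 44 were counted by list. Of 36 other fork and licensing genes tested in NB4 (37 listed), 10 rose and 5 fell, a share called of 41.7% beside 47.4% of all genes, with a median change of -0.0078. POLD4, a small subunit of polymerase delta, averaged 2.59 ± 0.28 RPKM in NB4 shM14 and 5.57 ± 0.45 RPKM in NB4 shNS (SD, n = 2 each) and fell by 0.87 (limma adjusted p = 0.0016). MCMBP, which binds MCM proteins and helps to maintain them, averaged 46.2 ± 0.97 RPKM with shM14 and 32.3 ± 0.66 RPKM with shNS in NB4 (SD, n = 2 each) and rose by 0.50 (limma adjusted p = 0.0016). CLSPN, the fork mediator of checkpoint signalling, rose by 0.45 (limma adjusted p = 0.0022), and ORC2, an origin recognition subunit, fell by 0.41 (limma adjusted p = 0.0028). Of these 4 genes, POLD4 and MCMBP also passed over both lines (limma adjusted p = 0.031 and 0.011), and in MM6 no gene of the list passed.

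Of 28 other nucleotide supply genes, 8 rose and 8 fell in NB4, a share of 57.1% beside 47.4% of all genes. SAMHD1, the phosphohydrolase that breaks down deoxynucleotides, averaged 9.80 ± 0.51 RPKM in NB4 shM14 and 31.2 ± 0.89 RPKM in NB4 shNS (SD, n = 2 each). It averaged 58.1 ± 6.5 RPKM in MM6 shM14 and 104 ± 30 RPKM in MM6 shNS (SD, n = 2 each). SAMHD1 fell by 1.58 in NB4 (limma adjusted p = 0.00019) and by 1.19 over both lines (limma adjusted p = 0.0082), with a change of -0.81 in MM6 that did not pass (limma adjusted p = 0.21). CTPS1, a CTP synthase, rose by 0.49 in NB4 (limma adjusted p = 0.0014), while its paralog CTPS2 fell by 0.52 (limma adjusted p = 0.0019) and TK2, the mitochondrial thymidine kinase, fell by 0.40 (limma adjusted p = 0.0031). CTPS2 and TK2 had group means of 2.67 RPKM or less in NB4.

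Of 27 regulators of the G1/S transition tested in NB4 (28 listed), 13 rose and 6 fell, a share of 70.4% with a median change of 0.16. Over all genes tested in NB4 47.4% were called (22.1% higher and 25.2% lower). MYBL2, a transcription factor of cycling cells, averaged 121 ± 0.15 RPKM with shM14 and 85.8 ± 2.1 RPKM with shNS in NB4 (SD, n = 2 each) and rose by 0.49 (limma adjusted p = 0.0017). CDC25A, the phosphatase that activates CDK2, rose by 0.39 (limma adjusted p = 0.0031). TFDP2, a dimer partner of E2F proteins, fell by 0.62 (limma adjusted p = 0.00088), and CCND1, cyclin D1, fell by 0.64 (limma adjusted p = 0.0013). None of these lists had a gene past the threshold in MM6. Over both lines, TFDP2 fell by 0.57 (limma adjusted p = 0.011).

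**Figure D4:**
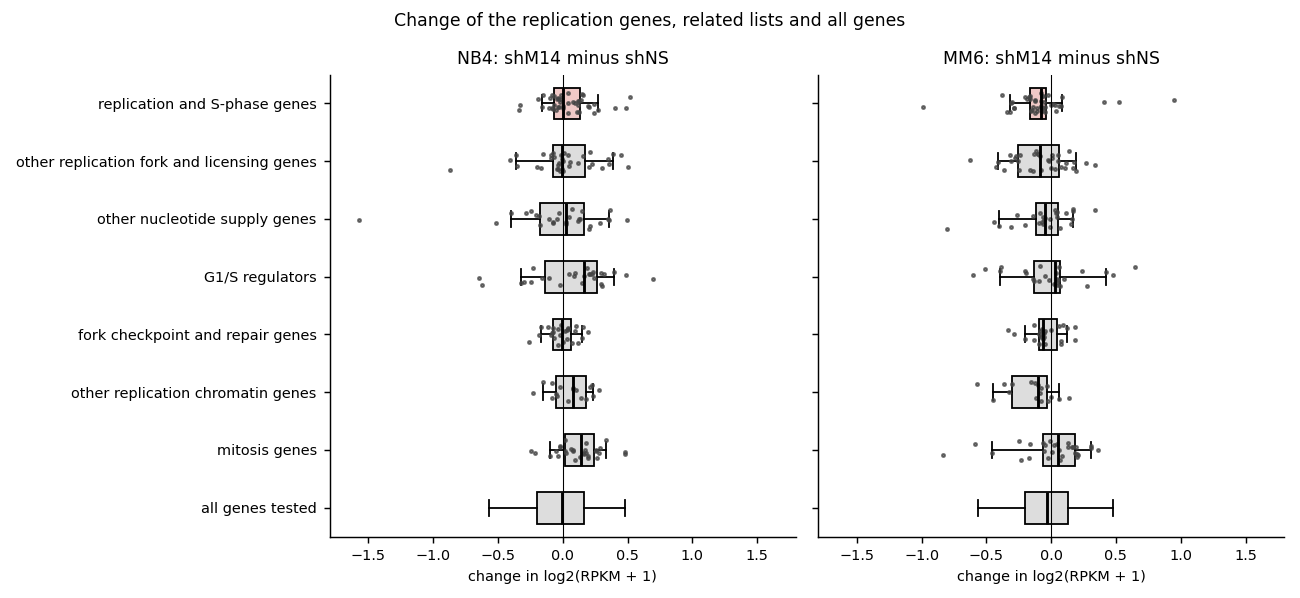
Changes (shM14 minus shNS, log2(RPKM + 1)) of the 44 genes, 6 related lists and all genes tested, NB4 on the left and MM6 on the right; points are genes, boxes span the quartiles with the median as a line, and whiskers run over the central 90%. In NB4 the box of the 44 genes sits around 0, those of the G1/S regulators and mitosis genes have medians of 0.16 and 0.14, and in MM6 the medians of all 6 lists and of the 44 genes lie between -0.10 and 0.05.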

How the data were processed

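Poly(A) RNA was isolated after TRIzol extraction from 100 ng of total RNA, prepared with a strand-marking kit and sequenced from a single end for 50 bp, per the labels. The authors deposited 1 table per cell line. Its RPKM values per library are, as deposited, reads per kilobase and 1e+06 reads assigned to genes; the headers do not name this unit, which was worked out from the values. The signal columns hold, per the file headers, the authors' group means of normalised reads. The log2 column is the log2 fold change, per the file headers, and the p-value column the authors' adjusted p. The aligner, read counter, strand setting, build and test are not stated in the sources at hand, so values of overlapping or antisense genes are less certain. Of the 16726 genes, 27 have no symbol.

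Whole reads were recovered from the RPKM and group means for 100% of values within 0.01, and gave the depth. Replicates differed by more than sampling noise. Genes with at least 1 RPKM in at least 2 libraries were fitted as log2(RPKM + 1) with limma 3.58.1 (R 4.3.3), each line alone, both lines with a cell line term, and the interaction, with adjustment over all genes tested. A pseudocount of 1 understates changes of low genes. The same steps were tested on simulated data with the same small spread between replicates in both lines. The real spread was larger in MM6, so that test does not cover fits that use MM6 libraries. Alternatives were a pseudocount of 0.1, no filter, 5 RPKM, a replicate block, median-of-ratios scaling, voom on recovered reads, a variance trend, all 8 libraries in 1 model and leaving out each library. Tables and figures used Python 3.11.15, pandas 2.3.3 and matplotlib 3.10.9.

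The 44 genes, the 6 lists and the tests were chosen with earlier results of these data known. Values in every library are given for genes past a threshold, the 3 highest and 3 lowest by mean RPKM, and the 5 smallest p-values in MM6; from each list, up to 4 genes with the smallest p in NB4 are named. Promoters were searched in RefSeq sequence of GRCh38.p14.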

Additional observations from a re-analysis of the deposited data

Results flagged for a closer look

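CCND1, from the list of G1/S regulators, passed the test of the difference between lines, but it was hardly detected in MM6. It averaged 4.85 ± 0.28 RPKM in NB4 shM14 and 8.12 ± 0.19 RPKM in NB4 shNS (SD, n = 2 each), against 0.0273 ± 0.0039 RPKM in MM6 shM14 and 0.0187 ± 0.0012 RPKM in MM6 shNS (SD, n = 2 each). Its change in NB4 minus its change in MM6 was -0.65 on the log2(RPKM + 1) scale (limma interaction, adjusted p = 0.031). It entered this fit through its NB4 values alone and was below the filter in MM6, so the value restates its fall in NB4 and shows no difference in response between the lines.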

How the results depend on the processing

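The single-gene results followed under the alternatives were chosen by call. They were those of replication genes and METTL14 that passed in a main fit. METTL14 in MM6 and the UHRF1 difference between lines, which did not pass, were followed too. Of 219 such results under an alternative, 179 kept direction and side of the threshold, 35 lost the call, 5 gained it and 0 reversed. Only METTL14 in MM6 and the UHRF1 difference could gain a call. Gains of other replication genes, such as those with voom below, are outside this count. In NB4 the count of replication genes called higher, 8, was 14 with voom on recovered reads and 1 with all 8 libraries in 1 model, and 3 to 7 when each library was left out; the count called lower, 2, was 6 with voom, 0 with all 8 libraries and 1 to 4 with a library left out. In MM6, where 0 were called, all 8 libraries in 1 model gave 2 higher (E2F2 and RRM2) and 3 lower (PRIM2, RPA3 and UHRF1). Over both lines, leaving out a library gave 1 to 2 higher and 0 to 1 lower, and for the difference between lines 0 to 1; median-of-ratios scaling gave 1 difference, UHRF1.

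With the replicate number as a block, MM6 gave 2 genes higher (E2F2 and RRM2) and 1 lower (UHRF1), the difference between lines gave 3 (E2F2, FEN1 and UHRF1, the last at 1.20 with an adjusted p of 0.012), and no other count of the 44 genes moved. Deviations of libraries with the same number correlated at 0.69 in MM6 and 0.068 in NB4; with 2 libraries a group and no label for a shared culture or day, the numbers were not taken as pairs.

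Over all genes, calls in NB4 numbered 5460, with 1769 from all 8 libraries and 3049 to 4637 with a library left out. In MM6 the 9 calls became 1405 with the replicate block, 1315 with all 8 libraries, 39 with voom, 4 at 5 RPKM, 3 with median-of-ratios scaling, 0 without a filter and 5 to 23 with a library left out. Over both lines the 1523 calls were 496 to 1926 with a library left out. For the difference between lines the 374 calls became 1143 with the replicate block, 203 at a pseudocount of 0.1, 207 with voom and 5 to 742 with a library left out. METTL14 passed in MM6 with the replicate block (adjusted p = 0.0089) and with all 8 libraries (adjusted p = 0.0031). The cause of these shifts was not tested. Libraries of 2 per group limit every call, in MM6 most of all.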

Other observations

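Genes of mitosis, the stage after S phase, were also counted. Of 30 tested in NB4, 13 rose and 2 fell, a share of 50% beside 47.4% of all genes, with a median change of 0.14. By direction, 22.1% of all genes tested in NB4 rose and 25.2% fell. CENPA, the centromeric histone, averaged 22.2 ± 0.23 RPKM in NB4 shM14 and 15.6 ± 0.15 RPKM in NB4 shNS (SD, n = 2 each) and rose by 0.48 (limma adjusted p = 0.0016). MKI67, the Ki-67 protein of dividing cells, averaged 70.2 ± 1.2 RPKM with shM14 and 50.1 ± 0.0012 RPKM with shNS in NB4 (SD, n = 2 each) and rose by 0.48 (limma adjusted p = 0.0017). FOXM1, a transcription factor of late cell cycle genes, rose by 0.33 (limma adjusted p = 0.0059) and CCNB1, cyclin B1, by 0.26 (limma adjusted p = 0.011). None of the 30 genes passed in MM6 or over both lines.

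Of 26 fork checkpoint and repair genes, 1 rose and 3 fell in NB4, a share of 15.4% beside 47.4% of all genes. ATR, the kinase that answers stalled forks, rose by 0.19 (limma adjusted p = 0.022), while MRE11A and NBN, of the same end-processing complex, fell by 0.26 (limma adjusted p = 0.014) and 0.17 (limma adjusted p = 0.031), and FANCI, of the Fanconi anemia pathway, fell by 0.18 (limma adjusted p = 0.029). Of 17 other genes of chromatin replication, 5 rose and 1 fell in NB4, a share of 35.3% beside the same 47.4% (22.1% higher and 25.2% lower). HAT1, a histone acetyltransferase, rose by 0.23 (limma adjusted p = 0.015), EZH2, the H3K27 methyltransferase, by 0.21 (limma adjusted p = 0.017) and HELLS, a chromatin remodeler, by 0.28 (limma adjusted p = 0.019). RBBP7, a histone-binding protein, fell by 0.23 (limma adjusted p = 0.012). No gene of these lists passed in MM6.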
